A study of Homo sapiens with 6 samples.

Results

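The 37 genes for aminoacyl-tRNA synthetases in this table were followed after asparagine was withdrawn from a leukemia cell line. They were taken by symbol from the 11911 genes of the table: one letter followed by ARS or ARS2, plus EPRS, FARSA and FARSB. Of these, 20 encode the cytosolic enzymes and 17, whose names end in 2, the mitochondrial ones. RNA was sequenced from RS4;11, a human cell line that grew out of a B-lineage acute lymphoblastic leukemia and carries the KMT2A::AFF1 fusion. By the sample titles, 3 libraries came from RS4;11 cells with asparagine and 3 from RS4;11 cells without it, with no genetic change or other agent named in either group. Per the series, the cells had been 16 hours without asparagine when RNA was taken. Cells were grown in DMEM and IMDM with 10% serum, and the treatment text, which is identical in the 6 samples, names 10% dialyzed serum and no asparagine. Which serum the cells with asparagine had is therefore not settled. The column names of the depleted group may abbreviate asparaginase, which the labels do not settle either. A single cell line is the only model, and no label says that the 3 libraries of a group came from separate cultures. The p-values therefore speak of differences against the scatter of these 3 libraries a group, and that scatter may be technical.

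Aminoacyl-tRNA synthetases join each amino acid to its transfer RNA, and the loaded transfer RNA then delivers the amino acid to the ribosome. Human cells carry one set for the cytosol and another, encoded in the nucleus and imported, for the mitochondrion. GARS and KARS serve both compartments from a single gene. When an amino acid runs short, uncharged transfer RNA activates the kinase GCN2, the factor eIF2 is phosphorylated, and translation of the transcription factor ATF4 increases. Several cytosolic synthetase genes are known targets of ATF4, and NARS is the synthetase that loads asparagine itself.

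The values are normalized CPM, read counts scaled by the authors in a way not known here, so every difference is relative to that scaling. The columns totaled 1018766 to 1031234 CPM with asparagine and 918783 to 952458 CPM without. The cause of this difference was not tested. Reads worked out from the step between values came to 29971364 to 51127073 per library and to 357 to 100637 for a member in a library. A separate check of low values did not find that step, so these read numbers are uncertain. Depleted library 1 stood apart from the other 2 depleted libraries in a way that followed the GC content of transcripts. Over the fifth of genes with the lowest GC content, the median log2 change against the libraries with asparagine was 0.03 in depleted library 1 and 0.81 and 0.87 in the others. Over the fifth with the highest, it was -0.09 against -0.86 and -0.89. Against the libraries with asparagine, the GC trend was thus in depleted libraries 2 and 3 and hardly in depleted library 1. Markers of 5 other lineages had no row or summed to far less than the B-cell precursor markers below. A row was present for 0 of 5 T-cell, 0 of 3 erythroid and 0 of 3 epithelial markers. The 2 of 5 myeloid markers with a row summed to 17.5 to 33.3 CPM, and the 2 of 3 fibroblast markers to 36.0 to 76.4 CPM. Of 13 markers of B-cell precursors, 11 had a row, and CD34 and MME had none. The 11 summed to 4192 to 4466 CPM with asparagine and 3211 to 4128 CPM without. In RNA from bulk cells, fewer cells of a type and less RNA per cell cannot be told apart.

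Without asparagine, most of the cytosolic genes that passed the test rose and most of the mitochondrial ones that passed it fell. All 37 members passed the filter on low values (at least 1 CPM in at least 3 libraries) and were tested with limma on log2(CPM + 1), with p-values adjusted over all 11892 genes tested and a threshold of 0.05. Of the 20 cytosolic genes, 11 rose, 5 fell and 4 did not pass. Of the 17 mitochondrial genes, 2 rose, 8 fell and 7 did not pass. Over all genes tested, 25.1% were called higher and 26.2% lower, so a gene called in one direction is common in these data. The median log2 fold change was 0.88 for the cytosolic genes, -0.42 for the mitochondrial genes and 0.01 for all genes tested. By depleted library, the cytosolic median was 0.59, 0.88 and 0.88 and the mitochondrial median -0.58, -0.29 and -0.44. A change of at least 2-fold was reached by 9 cytosolic genes that rose and 2 that fell, and by 1 mitochondrial gene that rose and 4 that fell, where 10.7% and 11.3% of all genes tested did so.

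Leaving out depleted library 1 gave 13 cytosolic genes higher and 7 lower, and 4 mitochondrial genes higher and 11 lower, with 40.0% and 41.6% of all genes tested called. After a correction for GC content in each library, the cytosolic counts were 11 higher and 7 lower and the mitochondrial counts 3 higher and 11 lower (35.2% and 34.3% of all genes), with medians of 0.61 and -0.49. With both changes at once the counts were 11 and 7 and 3 and 11 (39.4% and 38.7% of all genes). Summed over its 20 genes, the cytosolic set took 4522 to 4615 CPM in the libraries with asparagine and 8731 to 8999.9 CPM in the depleted ones. Without WARS, those sums were 4342 to 4434 and 6507 to 6638 CPM. The mitochondrial set summed to 1039 to 1123 CPM with asparagine and 825 to 863 CPM without, so neither sum overlapped between the groups. As a share of each column's total, the cytosolic set took 0.439 to 0.448% with asparagine and 0.945 to 0.956% without. The mitochondrial set took 0.102 to 0.109% and 0.089 to 0.091%.

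**Figure D1:**
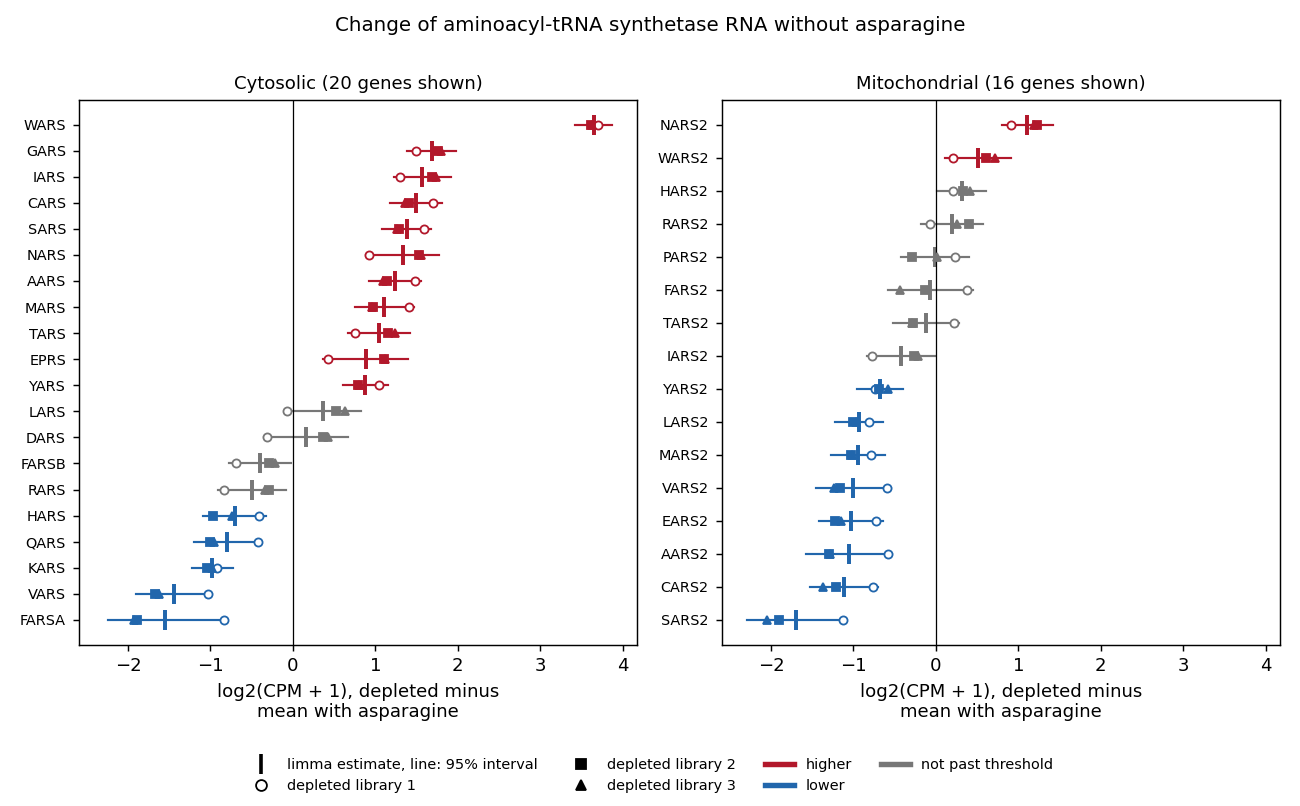
Change of each synthetase gene without asparagine, on the log2(CPM + 1) scale (horizontal axis), for 20 cytosolic genes (left) and 16 mitochondrial genes (right). The upright bar is the limma estimate with its 95% interval, and the circle, square and triangle are depleted libraries 1, 2 and 3 against the mean with asparagine. WARS stands far to the right at 3.65, and most mitochondrial genes lie left of 0.

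NARS and NARS2, the cytosolic and the mitochondrial asparaginyl-tRNA synthetase, both rose. NARS (chr18:57600656-57622213, minus strand, GRCh38, GENCODE 29) was at 188, 190.0 and 205 CPM in the libraries with asparagine and at 368, 561 and 569.8 CPM in the depleted ones. The groups were separate, and depleted library 1 was the lowest of its group. The means were 194 ± 9.01 and 499.7 ± 114 CPM (SD, n = 3), a 2.57-fold difference (log2 fold change 1.33, SE 0.19, limma adjusted p = 0.0019).

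NARS2 (chr11:78435961-78574874, minus strand) was at 78.5, 85.2 and 83.7 CPM with asparagine and at 155, 194 and 189 CPM without. Again no depleted library came near the other group, and library 1 was the lowest. Its means were 82.5 ± 3.52 and 179 ± 21.1 CPM, 2.18-fold higher without asparagine (log2 fold change 1.11, SE 0.13, limma adjusted p = 0.00105). It was the only mitochondrial synthetase gene of the 17 past the threshold with at least a 2-fold rise. After the GC correction the log2 fold changes were 1.08 for NARS and 0.71 for NARS2. The ratio of NARS to NARS2 within a library was 2.40, 2.23 and 2.44 with asparagine and 2.37, 2.89 and 3.02 without, and the groups overlapped. The difference in log2 ratio was 0.23 (exact permutation test, two-sided, p = 0.3, where 3 against 3 libraries cannot go below 0.1).

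WARS, which loads tryptophan in the cytosol and is also known as a gene induced by interferon gamma, rose more than any other of the 37 genes. It lies at chr14:100333788-100376805, minus strand. The 3 libraries with asparagine were nearly alike at 180.4, 181 and 182 CPM, and the depleted ones were at 2362, 2224 and 2247 CPM. Every depleted library, library 1 included, was far above every library with asparagine. The means were 181 ± 0.541 and 2278 ± 74.2 CPM, a 12.6-fold difference (log2 fold change 3.65, SE 0.09, limma adjusted p = 2.73e-05), which ranked 28 among the log2 fold changes of all 11892 genes. Its estimate was 3.62 after the GC correction and 3.62 without depleted library 1.

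Among the other cytosolic genes that rose at least 2-fold were GARS, IARS, CARS and SARS, for glycine, isoleucine, cysteine and serine. GARS (chr7:30594681-30634033, plus strand) was at 106, 112 and 108 CPM with asparagine and 306, 368 and 379 CPM without, 3.24-fold higher (log2 fold change 1.68, SE 0.12, limma adjusted p = 0.000246). IARS went from 228, 236 and 247 CPM to 584, 765 and 791 CPM, 3.01-fold higher (log2 fold change 1.57, SE 0.14, limma adjusted p = 0.000464). In both genes the groups were separate and depleted library 1 was the lowest of its group. CARS was at 70.3, 75.8 and 70.5 CPM with asparagine and 237, 193 and 187 CPM without, 2.85-fold higher (log2 fold change 1.49, SE 0.13, limma adjusted p = 0.00044). SARS was at 204, 213 and 205 CPM and then 624, 508 and 497 CPM, 2.62-fold higher (log2 fold change 1.38, SE 0.13, limma adjusted p = 0.000457). For these the groups were separate too, but depleted library 1 was the highest of its group.

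AARS, MARS and TARS, for alanine, methionine and threonine, followed with changes a little over 2-fold. AARS was at 392, 428 and 406 CPM with asparagine and 1139, 899 and 875 CPM without, 2.38-fold higher (log2 fold change 1.24, SE 0.13, limma adjusted p = 0.000777). MARS was at 298, 308 and 274 CPM and then 779, 574 and 570.3 CPM, 2.18-fold higher (log2 fold change 1.11, SE 0.15, limma adjusted p = 0.00174). TARS was at 189, 194 and 216 CPM and then 336, 444 and 473 CPM, 2.09-fold higher (log2 fold change 1.05, SE 0.16, limma adjusted p = 0.00244). No library with asparagine reached the depleted ones in any of the 3, with library 1 the highest depleted library for AARS and MARS and the lowest for TARS. After the GC correction TARS was at 0.75 (limma adjusted p = 2.13e-05), below 2-fold, and AARS and MARS at 1.49 and 1.31. Without depleted library 1 MARS was at 0.96. YARS, for tyrosine, rose by less, from 309.7 ± 10.7 to 571 ± 58.2 CPM (log2 fold change 0.88, SE 0.12, limma adjusted p = 0.00153).

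A promoter element was searched because 11 of the 13 synthetase genes that rose are listed below as known ATF4 targets. NARS2 and WARS2, which also rose, are not on that list. The part of ATF4 in these changes was not tested. The core of the amino acid response element, the site that ATF4 binds with C/EBP partners, was written as TGATGNAA and looked for on both strands, with no other motif searched. The windows were RefSeq promoters of GRCh38.p14, from 250 bases before to 50 bases after a gene's start, and 30 of the 37 members had one. The motif was present in 8 of these 30. The stretches that hold it are shown 5′ to 3′ on the gene's strand, with the 8 bases of the motif in capitals as read on that strand, so that their letters can be compared.
AARS: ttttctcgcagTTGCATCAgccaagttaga
CARS: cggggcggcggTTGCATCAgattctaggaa
GARS: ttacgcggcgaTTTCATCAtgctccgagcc
IARS: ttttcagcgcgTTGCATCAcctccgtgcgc
MARS: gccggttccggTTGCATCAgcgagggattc
NARS: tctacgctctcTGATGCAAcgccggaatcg
TARS: gcgcctttcgaTTGCATCAgctggtccagc
YARS2: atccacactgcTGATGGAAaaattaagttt
The stretches lie at chr16:70289675-70289704 for AARS, chr11:3057407-3057436 for CARS, chr7:30594834-30594863 for GARS, chr9:92293692-92293721 for IARS, chr12:57488053-57488082 for MARS, chr18:57621804-57621833 for NARS, chr5:33440956-33440985 for TARS and chr12:32756076-32756105 for YARS2. AARS, CARS, IARS, MARS and TARS carried the same 8 bases, TTGCATCA, and NARS carried their reverse complement, TGATGCAA. GARS differed from the first form as TTTCATCA, and YARS2 held TGATGGAA. Distances were taken from the RefSeq start of the window that holds the motif. In AARS and YARS2 the motif lay 187 and 197 bases before that start, and in the other 6 it began at most 33 bases from it. CARS, GARS and TARS each had 2 windows, and the motif was in only 1 of them. In the same 6 genes the stretch lies inside the gene's span in GENCODE, so this nearness holds for the RefSeq start used and not for the GENCODE start.

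All 7 cytosolic genes with the motif rose at least 2-fold in the authors' scaling over all libraries, while YARS2, the mitochondrial tyrosine enzyme, fell. After the GC correction TARS stayed below 2-fold. Of the 22 members with a window and no motif, 5 rose (EPRS, NARS2, SARS, WARS and WARS2), 9 fell and 8 did not pass. These 22 mix the compartments: of the 9 cytosolic ones among them, 3 rose, 4 fell and 2 did not pass. The 7 members without a window, YARS and LARS among them, could not be searched. Over all genes tested, 25.1% were called higher and 26.2% lower. The motif was in 26.7% of the members with a window, in 3.62% of all 35116 windows of this length and in 4.46% of the 27305 genes that have a window. Among tested genes with a window it was in 3.97% of those that rose, 1.45% of those that fell and 2.58% of those not called. These 3 shares cover the 8972 tested genes whose symbol matched that of a window exactly. The 7 cytosolic genes with the motif were found under newer RefSeq symbols and are not among them. WARS, which rose most, had no match in its 2 windows, and this says only that these letters were not in those stretches. A match describes the letters and shows neither binding nor a cause.

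The 12 synthetase genes listed as known ATF4 targets were AARS, CARS, EPRS, GARS, IARS, LARS, MARS, NARS, SARS, TARS, WARS and YARS. Of these, 11 rose and 0 fell, and LARS did not pass, with a median log2 fold change of 1.28 (1.26 after the GC correction). Of the other 8 cytosolic genes, 0 rose and 5 fell, with a median of -0.75. This list is no independent evidence, since it was chosen with earlier results of these data known. The RNA of ATF4 itself was at 399.8, 419.8 and 378 CPM with asparagine and 686, 400.2 and 383 CPM without (log2 fold change 0.24, SE 0.23, limma adjusted p = 0.397), and the groups overlapped. After the GC correction ATF4 passed as higher, at 0.55 (limma adjusted p = 0.00291), and without depleted library 1 it was at -0.03 (0.715). Of 8 tested reference genes of the amino acid response, 4 rose, 1 fell and 3 did not pass. Among all genes tested, 25.1% rose and 26.2% fell. TRIB3, SESN2, CHAC1 and DDIT3, genes known to rise with ATF4, rose by 4.20, 3.82, 3.38 and 3.31 on the log2 scale, with limma adjusted p of 5.56e-05, 5.72e-05, 0.000209 and 5.17e-05. GCN1, which helps to activate GCN2, fell (log2 fold change -0.96, SE 0.14, limma adjusted p = 0.00229). ASNS, asparagine synthetase and a known ATF4 target, was lower in every depleted library and did not pass (log2 fold change -0.33, SE 0.14, limma adjusted p = 0.0943), nor did EIF2AK4, the gene of GCN2 (log2 fold change -0.24, SE 0.12, limma adjusted p = 0.141). Both passed as lower after the GC correction, at -0.63 and -0.43 (limma adjusted p = 0.00186 and 0.000452).

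**Figure D2:**
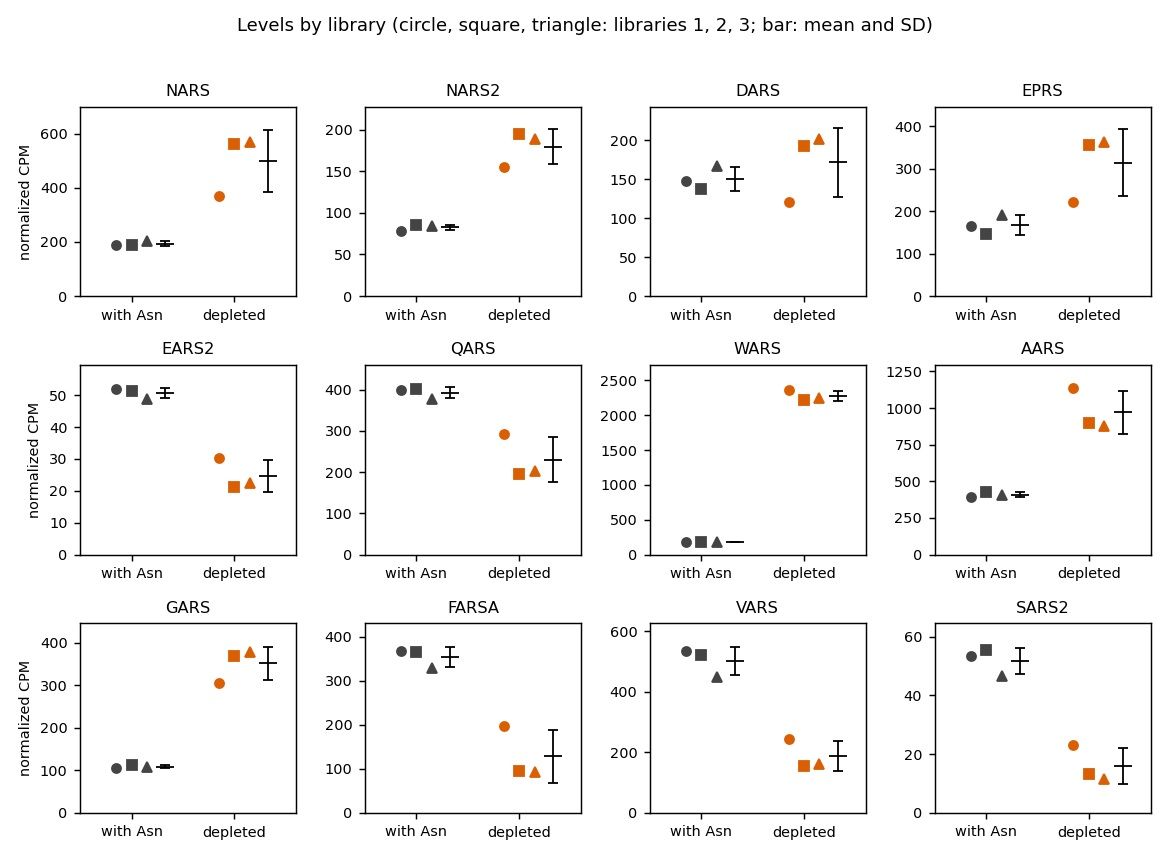
Normalized CPM (vertical axis, from 0 in each panel) of 12 synthetase genes in 3 libraries with asparagine (grey) and 3 depleted libraries (orange). The circle, square and triangle are libraries 1, 2 and 3, and the bar is the mean with its SD. WARS goes from about 181 to 2278 CPM, FARSA and SARS2 fall in all 3 depleted libraries, and the groups overlap for DARS.

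FARSA and VARS fell furthest among the cytosolic genes. FARSA encodes the alpha subunit of the cytosolic phenylalanine enzyme and lies at chr19:12922479-12934037, minus strand. It was at 367, 366 and 328 CPM with asparagine and 198, 94.4 and 92.7 CPM without, 2.76-fold lower (log2 fold change -1.55, SE 0.29, limma adjusted p = 0.00574). Depleted library 1 lay between the other group and the other 2 depleted libraries, and the groups did not overlap. VARS, for valine (chr6:31777518-31795953, minus strand), was at 535, 524 and 449 CPM and then 244, 156 and 161 CPM, 2.68-fold lower (log2 fold change -1.45, SE 0.19, limma adjusted p = 0.0016). It too was separate between the groups with library 1 the highest of the depleted ones. Their transcripts have a GC content of 61.6% and 62.6%, among the highest of the 37, and after the GC correction the log2 fold changes were -0.97 (limma adjusted p = 8.02e-05) and -0.83 (3.37e-05). The part of GC content in this result was not tested further.

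FARSB, the beta subunit, had means of 88.5 ± 4.53 and 67.4 ± 11.5 CPM and did not pass the threshold (log2 fold change -0.40, SE 0.16, limma adjusted p = 0.0695), although every depleted library was below every library with asparagine. FARSB passed as lower after the GC correction, at -0.87 (limma adjusted p = 0.00012), beside -0.97 for FARSA, and without depleted library 1, at -0.25 (0.0123), beside -1.91 for FARSA. The ratio of FARSA to FARSB was 4.41, 4.05 and 3.58 with asparagine and 3.65, 1.31 and 1.22 without, so depleted library 1 overlapped with the other group (exact permutation test, two-sided, p = 0.2). KARS, the lysine gene of both compartments, fell from 277 ± 8.95 to 140.2 ± 5.61 CPM (log2 fold change -0.98, SE 0.10, limma adjusted p = 0.000748), with all 3 depleted libraries near each other. HARS, for histidine, fell from 101 ± 2.28 to 62.5 ± 12.3 CPM (log2 fold change -0.70, SE 0.16, limma adjusted p = 0.0114). Without library 2 of the group with asparagine, HARS missed the threshold at a log2 fold change of -0.69 (limma adjusted p = 0.0539). RARS, for arginine, was lower in every depleted library than in any library with asparagine, with means of 61.4 ± 2.84 and 44.0 ± 8.75 CPM, and just missed the threshold (log2 fold change -0.49, SE 0.17, limma adjusted p = 0.0501). RARS passed as lower under 5 alternatives, among them the GC correction, at -0.57 (limma adjusted p = 0.00551), and without depleted library 1, at -0.32 (0.00427).

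The enzymes for aspartate, glutamate and glutamine, the amino acids closest to asparagine in metabolism, did not move together. DARS, the cytosolic aspartate enzyme, was at 147, 137 and 167 CPM with asparagine and 121, 193 and 201 CPM without (log2 fold change 0.16, SE 0.21, limma adjusted p = 0.553). Its 95% interval ran from -0.35 to 0.67. Depleted library 1 was the lowest of all 6 libraries and libraries 2 and 3 the highest, so the groups overlapped. Without depleted library 1 DARS passed as higher, at 0.39 (limma adjusted p = 0.00213), and after the GC correction it was at -0.15 (0.205).

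EPRS, 1 protein with a glutamate and a proline enzyme in the cytosol, was at 164, 145 and 191 CPM with asparagine and 223, 357 and 362 CPM without, 1.88-fold higher (log2 fold change 0.88, SE 0.22, limma adjusted p = 0.0154). The groups were separate, with library 1 the lowest depleted one, and the log2 fold change was 0.46 after the GC correction. EPRS missed the threshold without depleted library 2 (0.77) or 3 (0.76) and without library 1 (0.87) or 2 (0.79) of the group with asparagine, with a limma adjusted p of up to 0.066. EARS2, the mitochondrial glutamate enzyme, moved the other way, from 52.0, 51.5 and 48.8 CPM to 30.3, 21.1 and 22.4 CPM, 2.06-fold lower (log2 fold change -1.03, SE 0.16, limma adjusted p = 0.00298). QARS, the glutamine enzyme of the cytosol, fell as well, from 398, 402 and 377 CPM to 292, 195 and 202 CPM (log2 fold change -0.79, SE 0.17, limma adjusted p = 0.00946). In both, the depleted libraries all lay below the others and library 1 was the highest of them. After the GC correction the log2 fold change of QARS was -0.47 (limma adjusted p = 0.000224). The proline enzyme of the mitochondrion, PARS2, had means of 13.6 ± 1.30 and 13.6 ± 2.62 CPM (log2 fold change -0.01, SE 0.17, limma adjusted p = 0.948).

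In the cytosol, 8 of the synthetases are held in the multisynthetase complex, a scaffolded assembly, and these split in direction. EPRS, IARS and MARS rose, KARS and QARS fell, and DARS, LARS and RARS did not pass. Their median log2 fold change was 0.26, and by depleted library it was -0.19, 0.44 and 0.53 (-0.11 after the GC correction). Of the 12 cytosolic genes outside the complex, 8 rose, 3 fell and FARSB did not pass, with a median of 1.14. Over all genes tested, 25.1% rose and 26.2% fell, so rises and falls within a set of 8 genes are common in these data. Without depleted library 1, 5 of the 8 rose and 3 fell, beside 40.0% and 41.6% of all genes. After the GC correction 3 rose and 3 fell, beside 35.2% and 34.3%. LARS, the leucine enzyme and a known leucine sensor of mTORC1, was at 241, 243 and 268 CPM with asparagine and 239, 359 and 388 CPM without (log2 fold change 0.36, SE 0.19, limma adjusted p = 0.157), and depleted library 1 was the lowest of all 6 libraries. Without that library LARS passed as higher, at 0.57 (limma adjusted p = 3.82e-05), and after the GC correction it was at -0.07 (0.245).

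The scaffold genes of the complex did not all follow either direction. EEF1E1, also called AIMP3, rose, from 14.5, 13.2 and 14.3 CPM to 18.9, 44.1 and 42.5 CPM (log2 fold change 1.18, SE 0.32, limma adjusted p = 0.0203), with most of the rise in depleted libraries 2 and 3. AIMP1 had a log2 fold change of 0.50 (limma adjusted p = 0.0778) and AIMP2 of -0.37 (0.158). Without depleted library 1 AIMP1 passed as higher, at 0.72 (limma adjusted p = 1.98e-05), and AIMP2 as lower, at -0.58 (0.000255). After the GC correction they were at -0.12 (0.259) and -0.25 (0.11). Sorted by the fold of the catalytic domain, 5 of 9 cytosolic genes of class I rose and 2 fell, and 5 of 10 of class II rose and 3 fell, beside 25.1% and 26.2% of all genes tested.

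Of the mitochondrial genes that fell, SARS2, CARS2, AARS2 and EARS2 (described above) did so at least 2-fold. SARS2, for serine (chr19:38915266-38930896, minus strand), was at 53.3, 55.4 and 46.7 CPM with asparagine and 23.2, 13.2 and 11.7 CPM without, 3.24-fold lower (log2 fold change -1.69, SE 0.25, limma adjusted p = 0.00239). CARS2, for cysteine, was at 103, 104 and 99.3 CPM and then 59.7, 43.5 and 39.0 CPM, 2.15-fold lower (log2 fold change -1.11, SE 0.17, limma adjusted p = 0.00285). AARS2, for alanine, was at 83.9, 82.5 and 70.8 CPM and then 52.4, 31.5 and 31.7 CPM, 2.05-fold lower (log2 fold change -1.05, SE 0.22, limma adjusted p = 0.00806). All depleted libraries of these genes were below all libraries with asparagine, and library 1 was the highest depleted one in each. After the GC correction their log2 fold changes were -1.10, -1.23 and -0.57, all still past the limma threshold.

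The other mitochondrial genes that fell were VARS2, MARS2, LARS2 and YARS2. VARS2, for valine, was at 134, 134 and 117 CPM with asparagine and 84.3, 56.5 and 53.8 CPM without (log2 fold change -0.999, SE 0.19, limma adjusted p = 0.00616), with a log2 fold change of -0.48 after the GC correction. MARS2, for methionine, was at 81.4, 96.6 and 80.9 CPM and then 49.2, 41.8 and 41.9 CPM (log2 fold change -0.94, SE 0.14, limma adjusted p = 0.00215). Both were separate between the groups, and depleted libraries 2 and 3 lay close to each other. LARS2, for leucine, was at 71.4, 76.0 and 69.0 CPM and then 40.8, 35.4 and 36.3 CPM (log2 fold change -0.93, SE 0.12, limma adjusted p = 0.00153). YARS2, for tyrosine, was at 48.7, 49.1 and 47.0 CPM and then 28.5, 29.5 and 31.9 CPM (log2 fold change -0.67, SE 0.12, limma adjusted p = 0.00426). These 2 genes were separate as well, and YARS2 was lowest in depleted library 1. For alanine, cysteine, methionine, serine and tyrosine, the cytosolic gene rose while the mitochondrial gene fell.

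WARS2 was the only mitochondrial gene besides NARS2 called higher. It was at 16.9, 18.3 and 18.1 CPM with asparagine and 20.6, 27.7 and 30.0 CPM without, 1.47-fold higher (log2 fold change 0.51, SE 0.17, limma adjusted p = 0.0395), and no depleted library fell within the other group. Its call was lost under 11 of the 19 alternatives: the log2 fold change was 0.09 (limma adjusted p = 0.381) after the GC correction, and 0.41 to 0.53 when any library other than depleted library 1 was left out (limma adjusted p of 0.102 to 0.134). Of the 7 mitochondrial genes not past the threshold, HARS2, with means of 41.5 ± 2.69 and 51.9 ± 3.67 CPM (log2 fold change 0.32, SE 0.12, limma adjusted p = 0.0708), was higher in every depleted library and IARS2, with 128 ± 6.03 and 97.2 ± 19.8 CPM (log2 fold change -0.42, SE 0.17, limma adjusted p = 0.082), was lower in every one. Both passed after the GC correction, at 0.31 and -0.77 (limma adjusted p = 0.0115 and 3.04e-05), and without depleted library 1, at 0.37 and -0.24 (0.00303 and 0.0123). The groups overlapped for FARS2, PARS2, RARS2 and TARS2. FARS2, for phenylalanine, had means of 19.4 ± 1.40 and 19.0 ± 5.83 CPM (log2 fold change -0.07, SE 0.22, limma adjusted p = 0.811), RARS2, for arginine, 23.8 ± 0.708 and 27.6 ± 4.70 CPM (log2 fold change 0.20, SE 0.16, limma adjusted p = 0.323), and TARS2, for threonine, 81.0 ± 3.65 and 75.7 ± 16.2 CPM (log2 fold change -0.12, SE 0.17, limma adjusted p = 0.58). After the GC correction RARS2 passed as lower (-0.29, limma adjusted p = 0.0476) and TARS2 as higher (0.17, 0.0319), while without depleted library 1 they passed in the opposite directions (0.33 and -0.28). Counted by separation alone, 11 cytosolic and 3 mitochondrial genes were higher in all depleted libraries and 7 and 9 were lower, where 30.2% and 30.8% of all genes tested were.

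Pairing each cytosolic gene with the mitochondrial gene of the same amino acid gives a ratio of CPM that does not depend on the library's scaling. The log2 ratios and their tests used log2(CPM + 1), so they are not fully free of it. There were 16 such pairs, with FARSA and FARSB each set against FARS2. The ratio was higher in all depleted libraries for 10 pairs, lower for 4 and overlapping for 2, NARS/NARS2 and FARSB/FARS2. With 3 libraries against 3 the smallest p of the exact permutation test (two-sided) is 0.1, and Benjamini-Hochberg adjusted values over the 16 pairs ran from 0.114 to 0.6, so no pair could pass. After the GC correction the change in log2 ratio of FARSB to FARS2 was -1.02 (exact permutation p = 0.1, raw), against -0.33 without it.

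The widest shifts were in tryptophan and serine. WARS over WARS2 was 10.7, 9.90 and 10.0 with asparagine and 114, 80.3 and 75.0 without, a difference of 3.13 in log2 ratio. SARS over SARS2 went from 3.83, 3.84 and 4.38 to 27.0, 38.6 and 42.5, a difference of 3.07. CARS was below CARS2 in all libraries with asparagine (0.684, 0.729 and 0.71) and above it in all depleted ones (3.97, 4.43 and 4.80). The 4 pairs that moved toward the mitochondrial gene were those for histidine, arginine and valine and FARSA/FARS2. HARS over HARS2 went from 2.53, 2.33 and 2.46 to 1.57, 0.984 and 1.09, and FARSA over FARS2 from 19.4, 17.4 and 17.9 to 7.79, 5.37 and 6.61. Valine was the pair in which both genes fell, and the ratio went from 3.98, 3.92 and 3.85 to 2.89, 2.77 and 3.0.

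**Figure D3:**
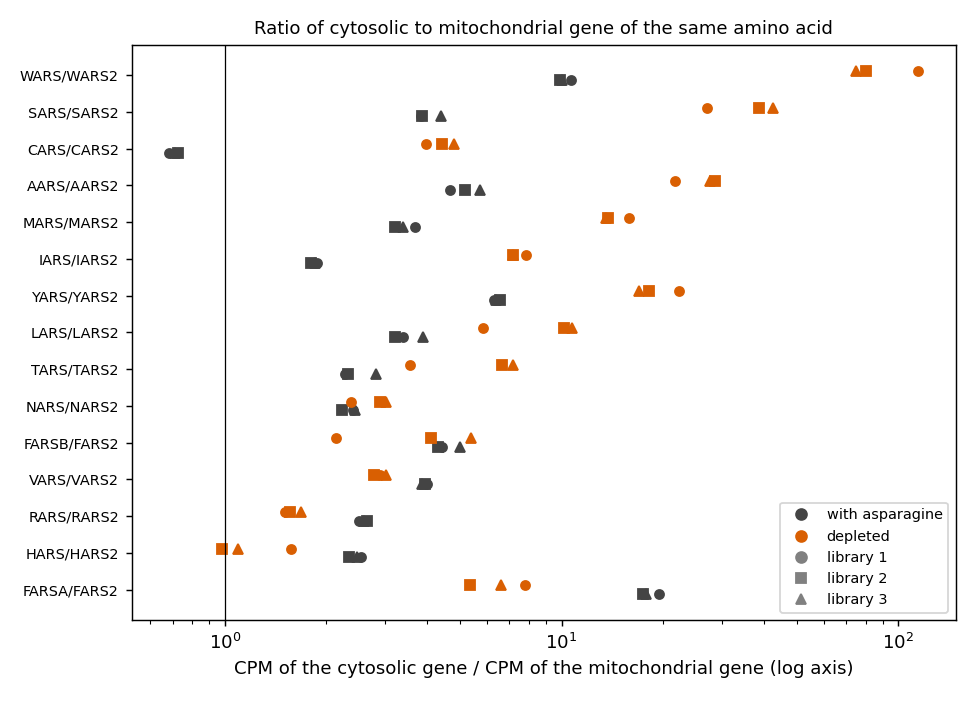
Ratio of the CPM of a cytosolic synthetase gene to that of the mitochondrial gene of the same amino acid (log axis) for 15 pairs, in 3 libraries with asparagine (grey) and 3 depleted ones (orange). The circle, square and triangle are libraries 1, 2 and 3. The depleted points lie to the right for 9 of these pairs, to the left for 4 and on no single side for NARS/NARS2 and FARSB/FARS2, whose depleted and grey points overlap in range.

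Levels of different genes were compared per kb of transcript, using for each gene the transcript with the longest coding sequence. With asparagine the order began with FARSA (172 ± 10.8 CPM per kb, SD, n = 3), QARS (139 ± 4.75), AARS (118 ± 5.17), VARS (117 ± 10.8) and KARS (115 ± 3.70). FARSA and QARS were separate beyond their spread, while AARS, VARS and KARS were not. WARS ranked 12 at 58.5 ± 0.175 CPM per kb and came first without asparagine at 737 ± 24.0. SARS followed at 289 ± 37.5, AARS at 279 ± 42.0 and MARS at 221 ± 41.2, with ranges that overlapped over the libraries, while within each depleted library SARS was above AARS and AARS above MARS. NARS moved from rank 11 (62.7 ± 2.91) to rank 7 (161 ± 36.8) and NARS2 from rank 21 (32.7 ± 1.40) to rank 13 (71.3 ± 8.36). FARSA dropped to rank 16 at 62.4 ± 29.4. PARS2 was the lowest in both groups, at 5.81 ± 0.554 and 5.80 ± 1.11 CPM per kb.

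For some members, reads of a neighbour could have been counted, since the annotation and the strand setting of the authors' counting are unknown from the sources used here. In GENCODE 29, 21 of the 37 members share exon bases with another gene, 11 of them with a gene that has its own row. HARS and HARS2 start next to each other on opposite strands and share 437 exon bases, 5.56% and 11.7% of theirs. SARS2 shares 349 bases (10.8%) with MRPS12, a mitochondrial ribosomal protein gene on the other strand, which fell from 120.3 to 40.4 CPM (log2 fold change -1.64, SE 0.30, limma adjusted p = 0.00487). SARS2 also shares 1492 bases (46.2%), the largest share of any member, with a protein-coding gene on the same strand that has no row. MARS shares 355 bases (5.05%) with DDIT3, which encodes the stress factor CHOP and rose from 22.5 to 233 CPM, while MARS rose from 294 to 641 CPM. VARS2 shares 1858 bases (22.0%) with GTF2H4 on the same strand, at 41.6 and 30.2 CPM (log2 fold change -0.47, SE 0.18, limma adjusted p = 0.0669). How far these shared bases entered the members' values was not tested. In addition, 11 members have 1 to 3 numbered pseudogenes, KARS the most, and the authors' counting could split reads between a gene and its copies.

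The distance of depleted library 1 from the other 2 depleted libraries followed GC content within the synthetases too. On the log2 scale its gap to the mean of libraries 2 and 3 ran from -0.70 (DARS, 44.5% GC) to 1.07 (FARSA, 61.6% GC). Pearson's r between this gap and GC content was 0.836 over the 37 members, a description of genes that share libraries. The median size of the gap was 0.44 for the cytosolic and 0.46 for the mitochondrial genes, against 0.53 for all genes tested, and between libraries 2 and 3 it was 0.04, 0.08 and 0.08. Library 1 and the mean of the other 2 lay on the same side of the libraries with asparagine for 18 of 20 cytosolic and 12 of 17 mitochondrial genes, and for 8777 of all 11892 genes tested. The log2 fold change itself had an r with GC content of -0.23 over the cytosolic and -0.66 over the mitochondrial genes. GARS, at 60.4% GC, went against this, since it rose and was lowest in depleted library 1. Whether GC content bears on the measured changes was not tested beyond the correction.

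**Figure D4:**
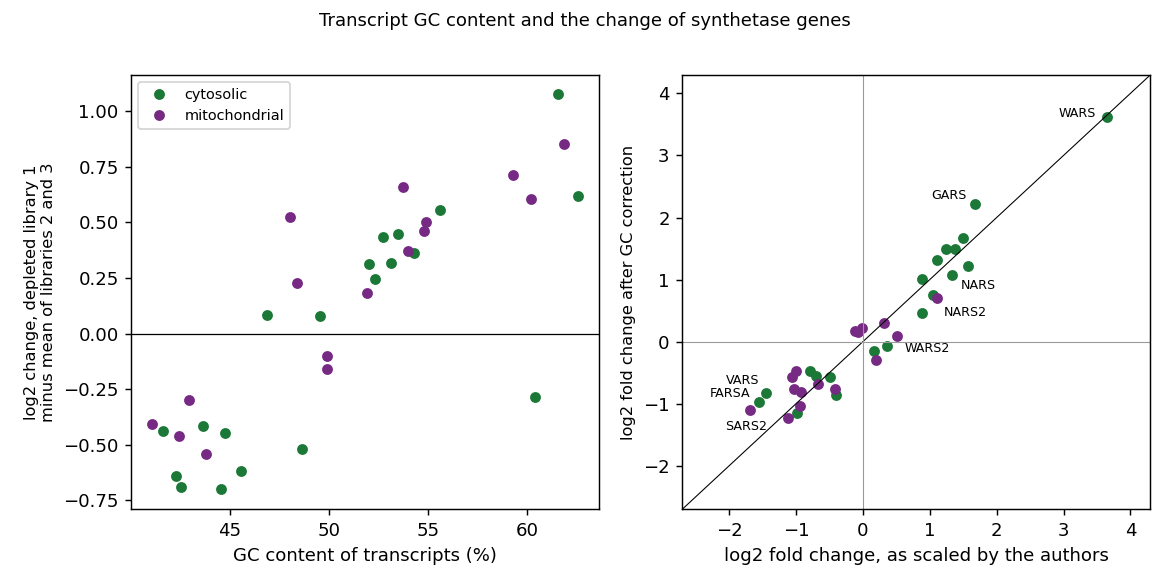
Left, the log2 gap of depleted library 1 to the mean of depleted libraries 2 and 3 (vertical axis) against the GC content of transcripts in percent, for 20 cytosolic (green) and 16 mitochondrial (purple) genes; the gap is mostly below 0 at low and above 0 at high GC content. Right, the log2 fold change after the GC correction against the one in the authors' scaling, with the line of equal values; WARS lies on the line, and FARSA, VARS and SARS2 lie nearer to 0 after the correction.

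Beyond the synthetases, 55 tested genes of transfer RNA charging, maturation and delivery gave 9 that rose and 17 that fell, with a median log2 fold change of -0.35 and 25.1% and 26.2% of all genes called. In the group that acts beside the synthetases, 3 of 12 rose and 2 fell. The risers were SEPSECS (19.9 to 47.8 CPM, log2 fold change 1.18, SE 0.23, limma adjusted p = 0.00652), PSTK (7.35 to 13.1 CPM, log2 fold change 0.75, SE 0.14, limma adjusted p = 0.0049) and SEPHS2 (log2 fold change 0.59, limma adjusted p = 0.00856). SEPSECS, PSTK and SEPHS2 belong to the route that makes selenocysteine on its transfer RNA. PTRH2, a peptidyl-tRNA hydrolase, fell by 0.62 on the log2 scale (limma adjusted p = 0.00573), as did DTD1, which removes D-amino acids from transfer RNA, by 0.57 (0.0254).

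Human mitochondria make their glutamine-loaded transfer RNA with an amidotransferase in place of a glutamine synthetase, and they formylate the methionine of the initiator. None of these 5 tested genes rose and 2 fell, where 25.1% of all genes tested rose and 26.2% fell. PDF, which removes the formyl group, was at 37.4, 39.2 and 34.6 CPM with asparagine and 19.5, 6.47 and 5.90 CPM without (log2 fold change -1.90, SE 0.40, limma adjusted p = 0.00871). Library 1 lay between the other depleted libraries and those with asparagine. MTFMT, which adds the formyl group, fell from 28.7 to 21.9 CPM (log2 fold change -0.37, SE 0.13, limma adjusted p = 0.0452). None of the amidotransferase subunits passed, and their log2 fold changes were -0.19 for GATB, -0.08 for QRSL1 and 0.08 for GATC (limma adjusted p = 0.296, 0.639 and 0.554). QRSL1 passed as lower after the GC correction, at -0.55 (limma adjusted p = 0.00316). GATB passed as lower without depleted library 1, at -0.31 (limma adjusted p = 0.0104).

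Of 29 tested genes of transfer RNA maturation and export, 5 rose and 10 fell, where 25.1% of all genes tested rose and 26.2% fell. XPOT, the export receptor that carries transfer RNA from the nucleus, was at 147, 156 and 163 CPM with asparagine and 366, 529 and 537 CPM without (log2 fold change 1.59, SE 0.17, limma adjusted p = 0.000779). All 3 depleted libraries were above the others, library 1 least. TSEN15, a subunit of the splicing endonuclease, rose from 48.9 to 116 CPM (log2 fold change 1.21, SE 0.16, limma adjusted p = 0.00149). POP7, a subunit of RNase P, fell from 114 to 35.2 CPM (log2 fold change -1.73, SE 0.25, limma adjusted p = 0.00216), and ELAC2, which trims the 3′ end, from 279.5 to 114 CPM (log2 fold change -1.31, SE 0.17, limma adjusted p = 0.0016). Of the 6 genes that deliver transfer RNA to the ribosome, 0 rose and 3 fell in the limma test: the mitochondrial elongation factors TSFM (log2 fold change -1.44, SE 0.15, limma adjusted p = 0.000671) and TUFM (log2 fold change -1.41, SE 0.20, limma adjusted p = 0.00193), and EEF1G of the cytosol (log2 fold change -1.11, SE 0.35, limma adjusted p = 0.0347). EEF1A1, the cytosolic carrier of loaded transfer RNA, was at 1168, 1311 and 1408 CPM with asparagine and 1228, 441 and 425 CPM without (log2 fold change -1.07, SE 0.40, limma adjusted p = 0.0575), so depleted library 1 was within the other group and the other 2 were far below it.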

How the data were processed

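RNA of 6 libraries was compared. Total RNA was extracted with Trizol and a company built the libraries, per the labels. STAR, Subread's featureCounts and FastQC, with build GRCh38, were used per the submitters' processing notes. Versions, annotation, strand setting, scaling and low-gene filter are unknown from the sources used here. The deposited values are normalized CPM, which is a signal that the authors scaled in each library. In every column 100% of values were whole multiples of one step within 1e-06 of a read, from which reads were worked out. A separate check of low values did not find that step, so the read numbers are uncertain and no count test was run on them. Columns were matched to samples by group and replicate number in their names.

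Values were analysed as log2(CPM + 1) in limma 3.58.1 (R 4.3.3), group as the only term, moderated with an intensity trend, for the 11892 genes that reached 1 CPM in 3 or more libraries. Two-sided p-values were Benjamini-Hochberg adjusted over these at 0.05. Folds are ratios of group means in CPM. Positions, GC content and lengths came from GENCODE 29, and 95.4% of genes in the table (11363) and all 37 members had a GC value. For the GC correction, each gene's deviation from its own mean was regressed on GC content by lowess (span 0.3), library by library, and the fit was subtracted. The fit was tested on simulated data with 100 genes changed 2-fold and 100 changed 4-fold, far fewer than were called here. It recovered 47% and 91% of them, and 1.43% of its calls were false. A gene that did not pass is therefore not shown to be unchanged. Members, gene lists and alternatives were chosen with earlier results of these data known. Per-library values are given for the asparagine, aspartate, glutamate and glutamine enzymes, members past the threshold with at least a 2-fold change and every mitochondrial member past it. From each list the 4 largest changes are named among genes whose higher group mean reached 5 CPM, and genes named beside these were chosen after their values were seen. One member and one gene of the lists are counted in the totals but not reported here, and the member is left out of the figures.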

Additional observations from a re-analysis of the deposited data

How the results depend on the processing

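Under 19 alternatives (pseudocounts, filters, rescaling, quantile normalization, moderation, a stricter threshold, GC correction, the replicate number as a block, and each library left out), all 26 members called kept their direction, and 23 also their side of the threshold; EPRS, HARS and WARS2 did not. The cause of the shifts below was not tested. At a threshold of 0.01, 1612 genes were higher and 1703 lower in all, and 8 other genes of transfer RNA charging were lower. With 1 library left out, all genes higher ranged from 1724 to 4728 and lower from 1785 to 4908, with the most without depleted library 1. Mitochondrial genes called higher numbered 1 under quantile normalization, the replicate block and the threshold of 0.01, and 1 to 4 with 1 library left out. Other genes of transfer RNA charging called lower numbered 28 with the GC correction, 38 with it and without depleted library 1, 26 with it and the replicate block, and 9 to 30 with 1 library left out; those higher numbered up to 16.

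The cytosolic median was 1.07 under quantile normalization, 0.61 with the GC correction, with or without the replicate block, and 0.65 with it and without depleted library 1. Members that changed sign had not passed the threshold. With the GC correction, with it and without depleted library 1, and with it and the replicate block, the log2 fold changes were -0.150, -0.038 and -0.150 for DARS, 0.149, 0.038 and 0.149 for FARS2, -0.072, -0.049 and -0.072 for LARS, 0.22, 0.21 and 0.22 for PARS2, -0.29, -0.38 and -0.29 for RARS2, and 0.17, 0.13 and 0.17 for TARS2. With 1 library left out, FARS2 reached 0.120 (without depleted library 3), PARS2 ranged from -0.139 to 0.123 and the change in log2 ratio of FARSB to FARS2 from -0.611 to 0.032 (-1.02 with the GC correction). FARSB, HARS2, IARS2 and RARS passed the threshold when depleted library 1 was left out, and also after the GC correction.

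Libraries with the same number did not all deviate together (Pearson r 0.08, -0.65 and 0.69). Not every library correlated best with its own number. These deviations are taken from means of only 3 libraries, so they cannot decide whether the numbers pair samples. With the replicate number as a block, 2824 genes were higher and 2989 lower in all, and the cytosolic counts were 11 and 5. Count models on the reads worked out from the values were not run. Limits are the 3 libraries per group, possibly technical, 1 line and 1 time. A further limit is a GC trend against the libraries with asparagine in depleted libraries 2 and 3, which depleted library 1 hardly showed.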
